A study of Homo sapiens with 12 samples.

Results

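The regions described here are the places on human transcripts where internal or cap m7G enrichment could be compared between METTL1 knockdown and control cells with the RNA itself well measured in both. Of the 9958 deposited m7G peaks, 2722 had at least 50 reads in the summed input libraries of the knockdown and at least 50 in the summed input libraries of the control, and these form the set. Another 343 peaks reached the limit in the control input only, 338 in the knockdown input only, and 6555 in neither. The 10 regions nearest the limit on the inside had a lower input sum of 50 reads each, and the 10 nearest on the outside had 49. The members lay in 1442 genes. Because peaks were called in each group separately and often overlap, the 2722 regions fall into 1793 clusters of overlapping regions, and counts over clusters use 1 region each.

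The cells were THP-1, a human monocytic leukemia line, made adherent with PMA (phorbol ester) at 100 ng/ml for 48 hours. The control group, labelled NC, is described in the series as wild type, and the knockdown group, labelled KD, carried shMETTL1. Both groups received PMA, so neither is an undifferentiated reference. Each group had 3 input libraries (IN, poly(A)-selected RNA) and 3 m7G immunoprecipitate libraries (IP), 12 in all. Nothing in the labels says whether the 3 libraries of a group came from separate cultures, so p-values measure the spread between these libraries, which may be technical.

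N7-methylguanosine (m7G) is the base of the cap that closes the 5′ end of messenger RNAs made in the nucleus. It also occurs inside tRNA, ribosomal RNA and, at lower levels, messenger RNA. METTL1, with its partner WDR4, methylates internal guanines of tRNAs and of some other RNAs, whereas cap methylation is the work of RNMT. An antibody to m7G can pull down fragments through either kind of site. A region's immunoprecipitate signal therefore follows both how much of its RNA is present and what share of it is captured, and the ratio of immunoprecipitate to input removes the first.

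The quantity reported is the enrichment change: the log2 ratio of IP to input in KD minus the same ratio in NC. It was estimated for every testable region in one edgeR quasi-likelihood fit over the 12 libraries. A value of 1 means that IP rose by a factor of 2 more than input did, or fell by that much less. The ratio says nothing about a change common to all regions, because libraries are scaled to each other. The input counts chose the members, so differences between KD and NC input are given as description without a test. No value of the IP libraries was used to choose among the peaks, but the peaks themselves are the authors' m7G peaks, and a peak found in one group alone leans toward that group.

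The libraries held 907024 to 1105477 reads in peaks for input and 1476384 to 1888972 for IP, of which members held 91.4% to 97.4%. All 2722 members were among the 5113 regions tested. The targeted gene could not be checked, since no peak lay in METTL1 or in the other 5 m7G methyltransferase genes listed. By the marker lists used here, the NC libraries did not match a macrophage label as closely as the KD libraries did. These lists were drawn up with earlier results of these data known, so their direction is not independent evidence. Markers of the HEK293 embryonic kidney line, of which 27 of 34 genes had peaks, summed to 18060 to 19090 CPM of peak reads in NC input and 6006 to 6177 in KD input, with 5 of the genes at 0 in KD input. The same list stood at 18320 to 19810 in NC IP and 4650 to 5060 in KD IP. Macrophage and monocyte markers, 14 of 36 genes, summed to 1989 to 2427 in NC input and 4452 to 4673 in KD input, and 1977 to 2140 against 3645 to 4033 in IP. The defining markers CD14, CD163 and PTPRC had no peak, while SPI1, LYZ and ITGAM did. Every NC library shared this, so no comparison could be made without it, and its part in the differences below was not tested. In bulk RNA, fewer cells of a type cannot be told apart from less RNA per cell.

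Members that lie at transcript starts carry the cap within or beside the region, and several of the largest differences were of this kind. The sequences around those starts are shown from RefSeq (GRCh38.p14), 5′ to 3′ on the gene's strand, with the 40 bases before the annotated start in lower case and the first 10 transcribed bases in capitals. Of them, 6 belong to regions with lower enrichment in KD, and 2, HAPSTR1 and STK40, to regions with higher enrichment. RPLP1 and RPL35 are added because the ribosomal protein regions lay on one side together.
RPL28 (chr19:55385892-55385941, plus strand): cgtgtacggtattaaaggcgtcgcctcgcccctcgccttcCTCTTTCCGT
APP (chr21:26171119-26171168, minus strand): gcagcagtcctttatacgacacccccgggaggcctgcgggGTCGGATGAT
DNAJB11 (chr3:186570680-186570729, plus strand): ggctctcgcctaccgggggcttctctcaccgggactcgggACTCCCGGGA
UGP2 (chr2:63840929-63840978, plus strand): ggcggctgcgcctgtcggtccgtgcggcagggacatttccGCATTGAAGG
USP11 (chrX:47232969-47233018, plus strand): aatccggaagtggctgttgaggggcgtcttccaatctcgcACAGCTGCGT
CYBA (chr16:88651044-88651093, minus strand): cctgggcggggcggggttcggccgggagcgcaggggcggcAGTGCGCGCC
HAPSTR1 (chr16:9091604-9091653, plus strand): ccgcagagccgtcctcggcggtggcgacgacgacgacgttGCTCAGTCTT
STK40 (chr1:36385915-36385964, minus strand): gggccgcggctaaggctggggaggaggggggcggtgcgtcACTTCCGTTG
RPLP1 (chr15:69452778-69452827, plus strand): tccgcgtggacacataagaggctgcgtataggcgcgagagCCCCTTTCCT
RPL35 (chr9:124861948-124861997, minus strand): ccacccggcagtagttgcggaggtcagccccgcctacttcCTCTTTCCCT
RPL28, RPLP1 and RPL35 begin with a run of pyrimidines, the terminal oligopyrimidine start typical of ribosomal protein messages. The letters CTTT occur within the 20 bases centred on the start in 8.83% of 27305 RefSeq starts on the gene's strand, and in 14.9% when AAAG, the same letters on the other strand, is counted too. They occur at 24 of the 368 starts that members cover (6.52%) and at 6 of 8 ribosomal protein starts that could be matched. The median enrichment change was -0.02 at the 24 starts with the letters and -0.02 at the 344 without.

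In the set as a whole, IP moved with the RNA. Over the 1793 clusters, the KD against NC change in IP correlated with the change in input (Pearson r = 0.864, Spearman rho = 0.843), and both had the same sign in 1458 clusters (81.3%). These are values across regions of the same 12 libraries, which share depth and scaling, and regions are not independent replicates. The standard deviation across clusters was 0.77 for the input change, 0.81 for the IP change and 0.41 for the enrichment change, so the ratio varied least. Over all 2722 members, the lower and upper quartiles of the enrichment change were -0.15 and 0.30, and the median was 0.08, the same to 2 decimals as over all 5113 regions tested. An enrichment change past 1 was seen on the higher side in 32 members (1.18%, against 10.9% of all tested) and on the lower side in 26 (0.955%, against 8.47%). It was above 0 in 61.0% of members and 57.0% of all tested.

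**Figure D1:**
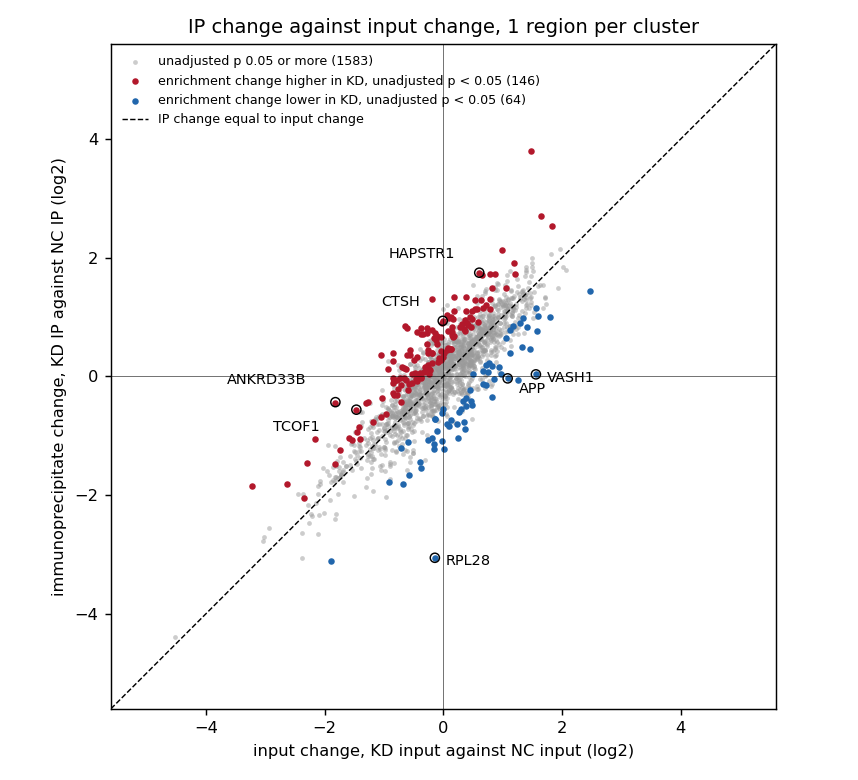
Change in immunoprecipitate (vertical, log2, KD against NC) against change in input (horizontal, log2) for 1793 clusters, 1 region each; points on the dashed line have an unchanged ratio, and the vertical distance from it is the enrichment change. Most points follow the line, 146 with higher enrichment at unadjusted p under 0.05 lie above it (red) and 64 with lower enrichment lie below it (blue).

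No member passed the test of the enrichment change: 0 of 2722 had an edgeR Benjamini-Hochberg adjusted p under 0.05, against 0.0% of all regions tested, and the smallest adjusted p was 0.116. At an unadjusted p under 0.05, 303 members (11.1%) stood apart, near the 11.9% of all tested regions. Of these, 209 were higher in KD (7.68%, against 7.73% of all tested) and 94 lower (3.45%, against 4.2%). DESeq2 on the same counts passed 6 members (0.220%, against 0.411% of all tested), 1 higher (0.0367%, against 0.156%) and 5 lower (0.184%, against 0.254%). In the authors' deposited comparison, 19 members had an adjusted p under 0.05 (0.698%, against 0.783% of the 9958 peaks), 7 higher (0.257%, against 0.351%) and 12 lower (0.441%, against 0.432%). The edgeR fit above did not join IP and input libraries of one name. With that block 14 members passed (13 higher, 1 lower), and 12 of them are calls of regions named below. Where edgeR's test is cited below, the fit without the block is meant. Each region below is therefore given with its values, and none is called changed in enrichment by that fit.

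The immunoprecipitates alone differed widely. Comparing KD IP with NC IP, 1417 members passed edgeR's adjusted threshold (52.1%, against 41.0% of all tested), 841 higher (30.9%, against 20.9%) and 576 lower (21.2%, against 20.1%). All 3 KD IP libraries lay above all 3 NC IP libraries in 1020 members (37.5%, against 29.5% of all tested) and below them in 722 (26.5%, against 28.3%), 64.0% in all against 57.9%. With TMM factors taken over the members alone, 681 were higher and 678 lower, so the split between directions depends on the scaling. Within NC, 439 members had IP above input (16.1%, against 22.7%) and 1128 below it (41.4%, against 24.0%), 1567 in all (57.6%, against 46.7% of all tested). Within KD the numbers were 505 above (18.6%, against 23.5%) and 1044 below (38.4%, against 21.4%), 1549 in all (56.9%, against 44.9%). Scaling by library size alone gave 648 above and 722 below in NC and 623 above and 795 below in KD, and TMM factors over the members 662 above and 709 below in NC and 713 above and 651 below in KD, so which side held more regions in KD depended on the scaling. A total of 365 members were above input in both groups and 894 below input in both, and none passed in opposite directions. By full separation of the libraries alone, IP lay above input in NC and below it in KD in 4 members (0.147%, against 0.235% of all tested) and the reverse in 8 (0.294%, against 0.821%). The ratio in NC and the ratio in KD correlated at r = 0.860 over the 1793 clusters, which share the antibody, the scaling and the peak calls.

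The 146 clusters with higher enrichment in KD at unadjusted p under 0.05 were of several kinds. In 75 of them the IP itself rose by edgeR's adjusted test, in 53 the IP did not pass, and in 18 it fell, so that the ratio was higher only because input was lower by more. Their median input change was -0.24 and their median IP change 0.44. Among the 64 clusters with lower enrichment, the IP fell in 27, did not pass in 26 and rose in 11, with a median input change of 0.42 and a median IP change of -0.41. Over all 1793 clusters the IP rose in 30.7% and fell in 21.1%. The IP is part of the ratio by which both groups were chosen. The regions named below are taken in the order of these kinds.

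HAPSTR1, whose product works with the ubiquitin ligase HUWE1 in a broad stress response, had the smallest p of all members. Its region (chr16:9091643-9092243, from the transcript start onward) stood at 94.3, 84.7 and 105 TMM-scaled CPM of peak reads in NC input and 210, 140 and 148 in NC IP. In KD the inputs were at 114, 150 and 170 and the IPs at 522, 578 and 577. Every KD IP library thus lay far above the highest NC IP library, while the KD inputs lay only a little above the NC inputs. IP rose by 1.75 on the log2 scale (edgeR adjusted p = 1.05e-09), input was 0.61 higher, and the enrichment change was 1.14 ± 0.23 (SE, 3 libraries a group; edgeR adjusted p = 0.116, DESeq2 adjusted p = 0.0364). The authors' deposited table gives 1.01 with an adjusted p of 0.016.

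CTSH encodes cathepsin H, a lysosomal protease of macrophages, and showed the gain most plainly, because its input hardly moved. The region at chr15:78932805-78933226 stood at 85.9, 112 and 85.5 CPM in NC input, 90.7, 108 and 81.2 in NC IP, 107, 94.6 and 79.4 in KD input and 179, 170 and 187 in KD IP. Only the KD IP libraries stood above the rest, without overlap. The enrichment change was 0.95 ± 0.25 (edgeR adjusted p = 0.132), with an input change of -0.01 and an IP change of 0.94. A like form was seen in SAMD1, a CpG-island reader that recruits chromatin modifiers, with an IP change of 0.62, an input change of -0.12 and an enrichment change of 0.73 ± 0.19. TBC1D10B, a Rab GTPase-activating protein, had 0.39, -0.20 and 0.58 ± 0.16.

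In a further group both IP and input were higher in KD and IP by more. SRF, the serum response factor that drives immediate early and actin genes, stood at 437, 436 and 435 in NC input, 563, 519 and 436 in NC IP, 596, 706 and 729 in KD input and 1184, 1282 and 1242 in KD IP, and its enrichment change was 0.65 ± 0.16. The IP of this region rose by 1.29, whereas input was 0.64 higher. GNAS, which encodes the stimulatory G protein alpha subunit within a locus of several overlapping transcripts, had an enrichment change of 0.89 ± 0.21 with IP up by 1.73. A separate GNAS region differed, with an IP change of -0.29, an input change of -0.55 and an enrichment change of 0.26 ± 0.15. VEGFA, the endothelial growth factor, had 0.57 ± 0.16 with IP up by 0.88, and STK40, a pseudokinase, 1.05 ± 0.31 with IP up by 1.70. JUND, an AP-1 subunit, had 1.15 ± 0.35 with IP up by 2.13, and its NC inputs were uneven at 108, 106 and 48.5. RTN4, the reticulon that shapes the endoplasmic reticulum, had 0.59 ± 0.17 although it was below input in both groups, by 1.34 in NC and 0.75 in KD on the log2 scale.

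Elsewhere the ratio was higher because input fell away more than IP. ANKRD33B, an ankyrin-repeat protein, stood at 72.3, 50.5 and 85.5 in NC input and 24.4, 15.3 and 19.6 in KD input, but at 72.7, 76.6 and 62.9 in NC IP and 57.1, 40.8 and 59.6 in KD IP. Its IP change of -0.43 did not pass (edgeR adjusted p = 0.136), its input change was -1.82, and its enrichment change was 1.38 ± 0.37. TCOF1, the treacle protein of ribosomal RNA transcription, had KD inputs of 70.1, 87.9 and 112 against 219, 262 and 265 in NC, while IP stood at 59.8, 61.7 and 67.7 against 83.3, 97.7 and 98.2. That gave an enrichment change of 0.90 ± 0.25 although the IP fell by 0.56. PPID, a cyclophilin that binds HSP90, had an input change of -0.85, an IP change of -0.02 and an enrichment change of 0.83 ± 0.24. IER5, an immediate early gene that acts on heat shock factor, had -0.53, 0.04 and 0.56 ± 0.16. DPH5, a diphthamide synthesis enzyme, had the lowest KD input of the named regions relative to NC, with an input change of -3.23, and an enrichment change of 1.38 ± 0.47. The authors' deposited table gives DPH5 a change of 1.25 with an adjusted p of 0.00417.

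**Figure D2:**
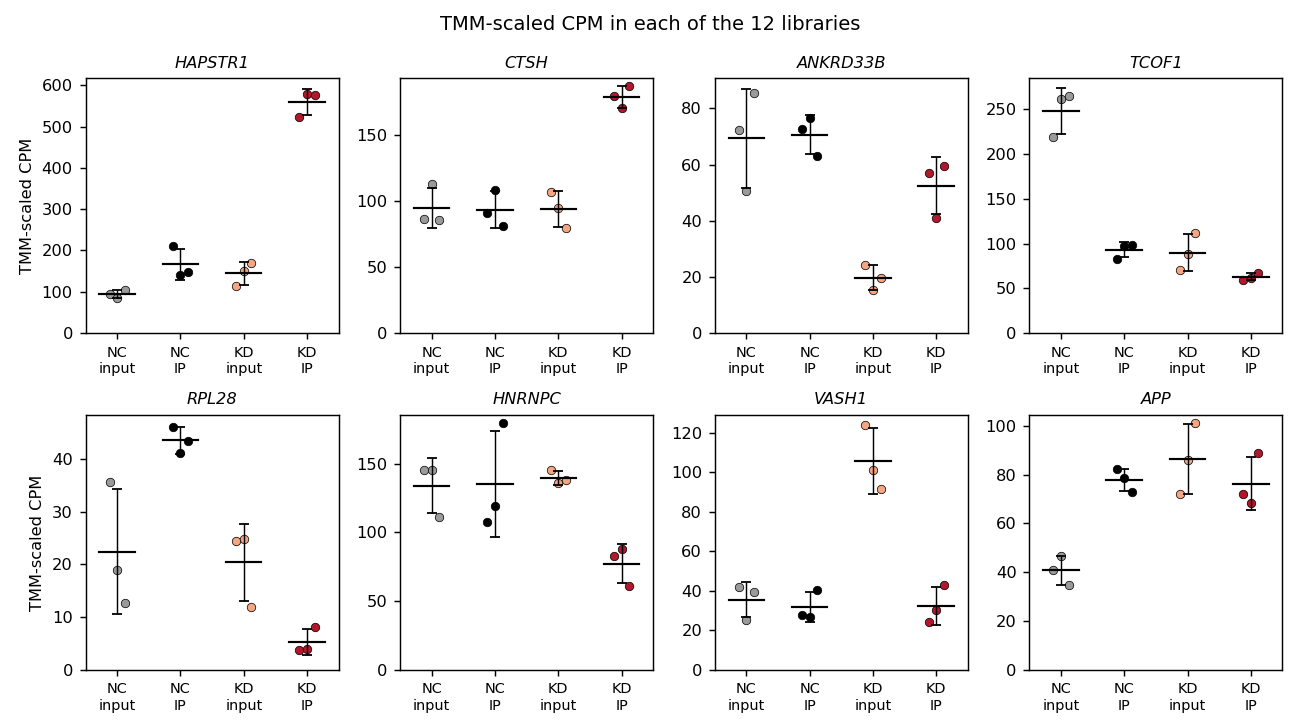
TMM-scaled CPM in each library for 8 named regions, as NC input, NC IP, KD input and KD IP; points are the 3 libraries of a group, horizontal lines their mean and bars 1 SD, and each panel has its own vertical axis from 0. HAPSTR1 and CTSH differ in KD IP, ANKRD33B and TCOF1 in KD input, RPL28 and HNRNPC in KD IP on the lower side, and VASH1 and APP chiefly in input.

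RPL28, a protein of the large ribosomal subunit, showed the largest loss of the set. RPL28 was called as a peak in NC only, and a peak of this kind leans toward NC. Its region (chr19:55385931-55386112) spans the pyrimidine-rich start printed above and stood at 35.6, 18.9 and 12.7 in NC input and 46.1, 41.1 and 43.4 in NC IP. In KD the inputs were at 24.4, 24.9 and 12 and the IPs at 3.73, 3.98 and 8.07. The inputs of the groups overlap, whereas the KD IP libraries lie far below the NC IP libraries and below every input. The IP fell by 3.06 (edgeR adjusted p = 3e-06), input was 0.14 lower, and the enrichment change was -2.91 ± 0.61 (edgeR adjusted p = 0.116, DESeq2 adjusted p = 0.00648). The region is thin, with 60 input reads in NC and 61 in KD, and the authors' deposited table gives -3.02 with an adjusted p of 1.34e-05. Leaving out replicate 1 of the NC inputs brought it past edgeR's threshold, and leaving out replicate 1 of the NC IPs did the same for HAPSTR1.

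HNRNPC, a core nuclear ribonucleoprotein, and USP11, a deubiquitinase, shared this form. HNRNPC stood at 146, 145 and 111 in NC input, 108, 119 and 179 in NC IP, 145, 136 and 138 in KD input and 82.7, 88.1 and 60.8 in KD IP. Input was level, NC IP varied between libraries, and KD IP lay below all of them. Its enrichment change was -0.86 ± 0.27 with IP down by 0.80. USP11 had -0.82 ± 0.26 with an input change of -0.11. POLR2C, an RNA polymerase II subunit, had -1.28 ± 0.42, with IP down by 1.04. ENO1, the glycolytic enolase, had -0.84 ± 0.21 in a region toward the end of the gene (edgeR adjusted p = 0.132, DESeq2 adjusted p = 0.0318). Its KD inputs of 306, 317 and 256 reached above the NC inputs of 246, 258 and 212, and its KD IPs of 72.5, 85.6 and 99.3 lay below the NC IPs of 136, 115 and 125.

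RBPJ, the DNA-binding partner of Notch, differed from these in that RNA and IP were both lower. Its IPs went from 327, 290 and 278 in NC to 87.5, 74.7 and 98.7 in KD and its inputs from 142, 89.7 and 112 to 51.8, 62.1 and 70.7. The enrichment change was -0.88 ± 0.26, and the region kept IP above input in both groups (edgeR adjusted p = 4.07e-07 in NC and 0.0346 in KD).

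Lower enrichment also appeared where input rose in KD and IP stayed. VASH1, vasohibin 1, an angiogenesis inhibitor with tubulin carboxypeptidase activity, stood at 41.9, 25.3 and 39.3 in NC input and 124, 101 and 91.3 in KD input, but its IPs overlapped at 27.6, 26.8 and 40.3 in NC and 24.0, 30.4 and 42.8 in KD. The enrichment change was -1.53 ± 0.39, with an IP change of 0.03 and an input change of 1.56 (edgeR adjusted p = 0.132, DESeq2 adjusted p = 0.0397). APP, the amyloid precursor protein, stood at 82.2, 78.4 and 73.0 in NC IP and 72.0, 68.2 and 88.8 in KD IP, with inputs of 40.9, 46.8 and 34.7 in NC and 72.1, 86.0 and 101 in KD. Its start region was thus above input in NC (edgeR adjusted p = 0.00089) and level with it in KD, and the enrichment change was -1.12 ± 0.29.

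In other regions too input was higher in KD by more than IP, although the form varied. DNAJB11, an HSP40 cochaperone of the endoplasmic reticulum, had an input change of 1.26, an IP change of -0.07 and an enrichment change of -1.33 ± 0.41. UGP2, which makes UDP-glucose, had 0.76, 0.08 and -0.68 ± 0.21, and all its KD IPs lay below all its KD inputs. CYBA, the p22phox subunit of the phagocyte oxidase, had 1.12, 0.39 and -0.73 ± 0.24, with all KD IPs above all NC IPs (edgeR adjusted p = 0.0505). In LPL, the lipoprotein lipase that macrophages secrete, the IP rose by 1.02 but input was higher by more, for an enrichment change of -0.58 ± 0.20. FTH1, ferritin heavy chain, is called lower in the authors' deposited table (-0.46, adjusted p = 0.0476) and had -0.35 ± 0.15 here, where edgeR gave an adjusted p of 0.364.

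Of the 19 members that the authors' deposited table calls, most had an unadjusted edgeR p under 0.05 but none passed after adjustment. AP1S2, a clathrin adaptor subunit, had the largest deposited gain, 2.20 with an adjusted p of 4.14e-07. Its NC inputs were 90.1, 16.4 and 1.16, a spread wider than any difference between the groups, and edgeR gave 2.32 ± 0.88 with an adjusted p of 0.308. Without replicate 1 of the NC inputs the change was 0.13, and without replicate 3 it was 2.80. PSMC3IP, a meiotic recombination cofactor, had -1.32 in the deposited table and -1.22 ± 0.51 here, NDUFA6, a complex I subunit, -1.03 and -0.91 ± 0.32, and BCAT1, a branched-chain aminotransferase, -0.95 and -0.83 ± 0.31.

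Grouped by function, the clearest one-sided list was that of the cytosolic ribosomal proteins. The lists were drawn up with earlier results of these data known, so their direction is not independent evidence. With library size alone the median over clusters moved by -0.13 on the log2 scale, and every list median moved with it: those of the ribosomal protein, immediate early, chromatin, MAP kinase and HEK293 lists kept their sign, while those of the chaperone, stress response, lysosome, lipid, actin and macrophage lists turned below 0. All 10 ribosomal protein clusters had an enrichment change below 0, from -2.91 in RPL28 to -0.01, with a median of -0.20 against 0.09 over the 1793 clusters. None of the 10 passed edgeR's test of the enrichment change, and 2 had an unadjusted p under 0.05 (RPL28 and RPL32, the latter at -0.51 ± 0.23). Their IP fell in 9 of 10 by edgeR's adjusted test, against 21.1% of all clusters. Their RNA was lower too, with a median input change of -0.62 beside a median IP change of -1.02. Leaving out single libraries put the enrichment change above 0 in 0 to 3 of the 10, the 3 without replicate 1 of the NC IPs. The 8 clusters in genes of given strand had a median of -0.24. Peaks called in NC only, such as that of RPL28, were not set apart in this list. Relative to the median of all clusters the list's median lay at -0.29 with TMM and at -0.29 with library size alone, and between -0.37 and -0.23 when single libraries were left out. RPL32 stood at 176, 210 and 189 in NC IP and 84.3, 90.1 and 93.7 in KD IP, with inputs of 200, 173 and 232 in NC and 116, 162 and 123 in KD. Both fell apart between groups without overlap, IP further than input. RPLP1, a stalk protein, had -0.41 ± 0.21, and RPL35 -0.29 ± 0.18.

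Translation factors gave smaller medians. The 5 elongation factor clusters had a median of -0.17, led by EEF2, the translocase of the ribosome, at -1.17 ± 0.48, and EEF1G at -0.63 ± 0.34, and 2 of the 5 were above 0. The 16 clusters of cap binding and initiation genes had a median of -0.08, with 7 above 0. EIF4G1, the scaffold that joins the cap-binding protein to the ribosome, carried the strongest start enrichment of the list. It had 23.1, 18.9 and 19.6 in NC input against 207, 203 and 154 in NC IP, and 16.2, 29.6 and 30.4 in KD input against 152, 133 and 186 in KD IP. The region was above input by 3.18 on the log2 scale in NC and 2.62 in KD, and its enrichment change was -0.56 ± 0.35. EIF4E2, a cap-binding protein, had 0.31 ± 0.14, and EIF2B5, a subunit of the exchange factor of initiation, 0.21 ± 0.15 (0.44 ± 0.17 in the shorter, overlapping NC call of the same cluster).

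RNA processing and energy genes were near or below the median of all clusters. The 49 clusters of splicing factors and hnRNPs had a median of -0.00 with 24 above 0. Their IP fell in 26 and rose in 1, against 21.1% and 30.7% of all clusters, and their median input change was -0.34. HNRNPU, a nuclear matrix hnRNP, was on the higher side at 0.38 ± 0.15. DHX15, a splicing helicase, had -0.14 ± 0.18, and -0.45 ± 0.21 in the shorter, overlapping KD call of the same cluster. Outside the list, DDX39A, an mRNA export helicase, had -1.17 ± 0.39 and IK, a spliceosome component, -1.26 ± 0.42. The 10 glycolysis clusters had a median of -0.09 with 4 above 0, and TPI1, triosephosphate isomerase, stood at -0.27 ± 0.16. The 6 clusters of nuclear genes of mitochondrial respiration had a median of -0.26 with 1 above 0, led by COX5A at -0.85 ± 0.36.

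**Figure D3:**
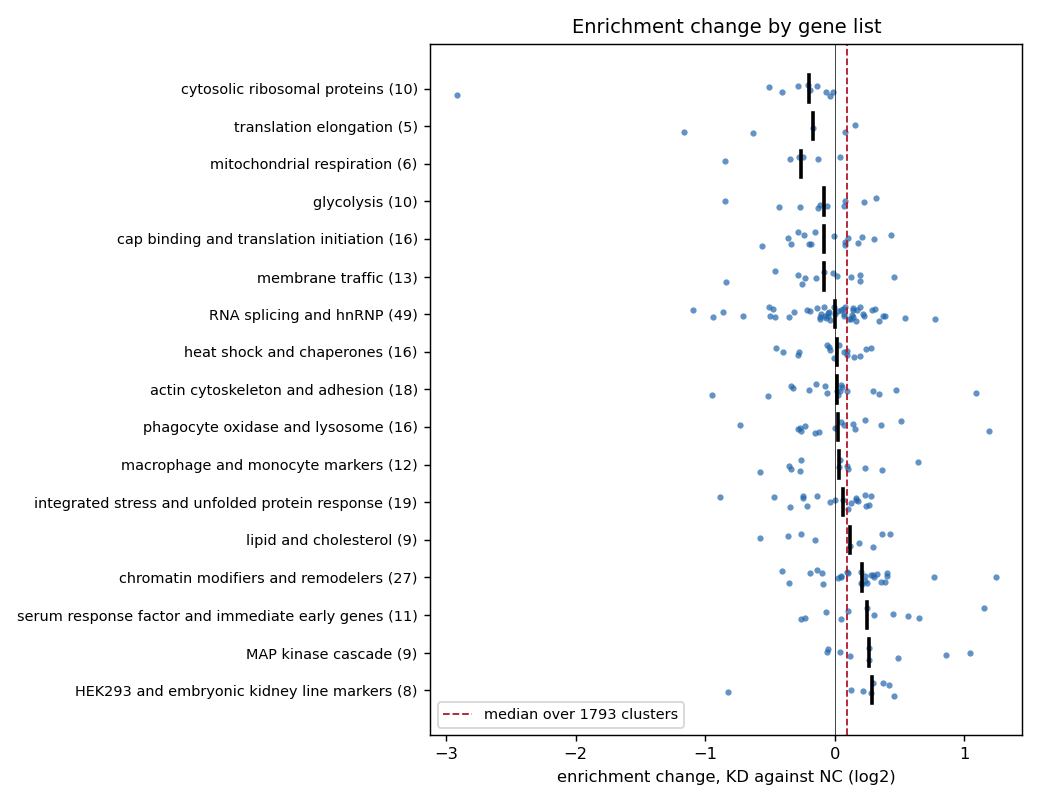
Enrichment change (horizontal, log2, KD against NC) of each cluster in 17 gene lists, with the number of clusters in brackets; black bars are list medians and the dashed red line is the median over 1793 clusters, and points are spread vertically only to be seen. All 10 ribosomal protein points lie below 0 with all libraries in, and the lists of chromatin modifiers, immediate early genes and MAP kinase genes lie mostly to the right of the dashed line.

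In 3 lists of regulatory genes the median lay above that of all clusters. The 11 clusters of serum response factor and immediate early genes had a median of 0.25 with 8 above 0. IP was higher in 7, against 30.7% of all clusters. SRF, JUND and IER5 had an unadjusted p under 0.05, and DUSP2, a nuclear MAP kinase phosphatase, had 0.45 ± 0.38 with an IP that rose by 1.84. Without replicate 2 of the KD inputs the list's distance from the median of all clusters shrank from 0.16 to 0.01. The 27 clusters of chromatin modifiers had a median of 0.21 with 21 above 0. Their IP rose in 5 and fell in 4, against 30.7% and 21.1% of all clusters, and input was lower by a median of 0.15. SETD1B, a histone H3 methyltransferase, had the highest of them at 1.24 ± 0.57, while its other region in the list had -0.36 ± 0.38. The 9 clusters of the MAP kinase list, which includes GNAS, had a median of 0.26 with 7 above 0, MAP3K5, the stress-activated kinase ASK1, being highest at 1.04 ± 0.51. Of all 1793 clusters, 61.1% were above 0. With library size alone the numbers above 0 became 6 of 11, 16 of 27 and 5 of 9. None of the clusters in these lists passed edgeR's adjusted test of the enrichment change.

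Lists that follow the macrophage state moved in RNA and IP together. The 12 clusters of macrophage and monocyte markers rose in IP in 10 and fell in none, against 30.7% and 21.1% of all clusters, with a median IP change of 0.94, a median input change of 0.95 and a median enrichment change of 0.03. APOE, the apolipoprotein of lipid-laden macrophages, had IPs of 298, 316 and 232 in NC and 810, 1038 and 1014 in KD, with inputs of 654, 584 and 518 in NC and 1298, 1573 and 1736 in KD. Its IP rose by 1.76 and its input was 1.39 higher, so the enrichment change was 0.37 ± 0.19. A second APOE region, nearer the start of the gene, had IP up by 1.2 and input 1.47 higher. Its enrichment change was on the other side, -0.26 ± 0.30. The 16 phagocyte oxidase and lysosome clusters had a median of 0.02, the 18 actin and adhesion clusters 0.02 and the 9 lipid and cholesterol clusters 0.11. In the actin list ACTB had 0.34 ± 0.12 with IP up by 1.13, and MSN, moesin, 1.09 ± 0.45. The 8 clusters of HEK293-type markers came from only 4 genes, TCEAL9 and MAP1B with 3 each and BEX1 and NEFH with 1 each, and had a median of 0.29 with 7 above 0. Input was lower in KD in the 3 TCEAL9 regions (-1.28 to -1.08) and, by less, in the 3 of MAP1B (-0.44 to -0.32), and their enrichment changes ran from 0.21 to 0.46. BEX1 had an enrichment change of -0.82 ± 0.48 with input 0.91 lower. NEFH, a neurofilament subunit, ran the other way in RNA, with input 1.12 higher and IP 1.24 higher in KD and an enrichment change of 0.12 ± 0.19.

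Chaperone and stress lists showed little. The 16 heat shock and chaperone clusters had a median of 0.01 with 8 above 0. HSP90AB1, the constitutive cytosolic HSP90, had the most input reads of the named regions, 113529 in NC and 174287 in KD, and an enrichment change of 0.24 ± 0.12. At this depth its error was small, and the change still did not pass edgeR's adjusted test (adjusted p = 0.436). HSP90AA1, the inducible form, had 0.29 ± 0.13. The 19 clusters of the integrated stress and unfolded protein responses had a median of 0.06 with 10 above 0. ATF4, the transcription factor at the centre of that response, had IPs of 476, 486 and 628 in NC and 296, 282 and 263 in KD, an input change of -0.67 and an enrichment change of -0.25 ± 0.16. TRIB3, its target, had -0.89 ± 0.39. Among RNA modification genes, NSUN2, a cytosine methyltransferase, had -0.55 ± 0.24, ZC3H13, a subunit of the m6A writer, 0.76 ± 0.31 and G3BP2, a stress granule protein, 0.47 ± 0.16.

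The place of a region in its gene went with its enrichment change. Of the 1720 clusters in 1 gene, 640 had their middle in the first 10% of the gene, 362 in the last 10% and 718 between. The median enrichment change was 0.03 in the first 10%, with 52.2% above 0, 0.13 between, with 69.2%, and 0.11 in the last 10%, with 62.2%. Of the clusters lower in KD at unadjusted p under 0.05, 59.7% lay in the first 10%, against 36.2% of those higher and 37.2% of all clusters. For the 368 members at an annotated start the median was -0.02, with 47.8% above 0. With library size alone the medians became -0.10, 0.01 and -0.02, and their order stayed. Some genes have no strand in the reference table and were placed by the strand of the peak. Over the 1412 clusters in genes of given strand, a restriction chosen after seeing the data, the medians were 0.02, 0.13 and 0.10.

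The same contrast was read from the libraries one by one, as the mean log2 level between the gene ends minus that in the first 10%, each region taken relative to its own mean. This difference was 0.25 ± 0.06 (SD, n = 3) in NC input and 0.08 ± 0.06 in KD input, and -0.14 ± 0.05 in NC IP and -0.19 ± 0.04 in KD IP. Input in KD was thus less weighted toward the gene interior, and the highest KD input library (0.14) lay below the lowest NC input library (0.19). The IP libraries of the groups overlapped. The difference of differences was 0.12 with a standard error of 0.06. It came from input, since the KD IP mean lay below the NC IP mean and so made it smaller. In genes of given strand it was 0.13. Whether RNA quality or fragment length has a part in it was not tested.

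**Figure D4:**
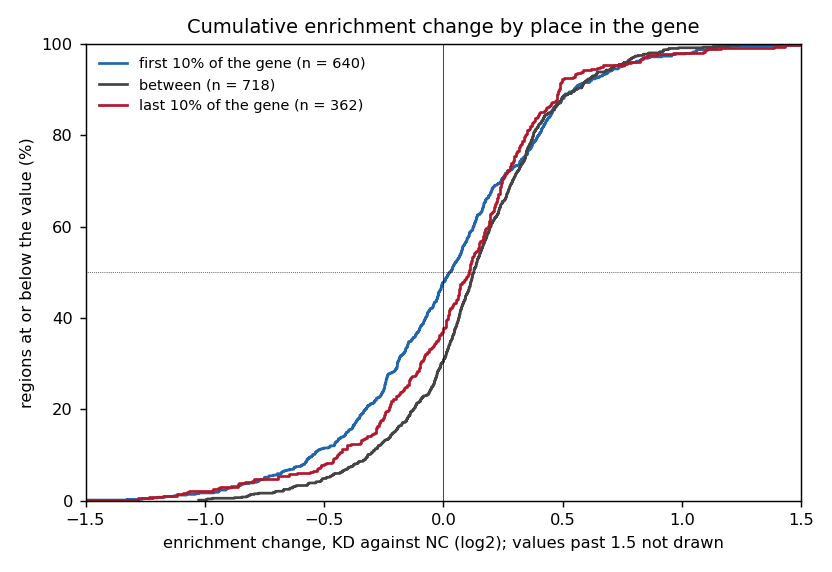
Cumulative share of clusters (vertical, %) at or below each enrichment change (horizontal, log2, KD against NC) for regions in the first 10% of the gene, between and in the last 10%. The curve of the first 10% lies to the left, with a median of 0.03 against 0.13 between the gene ends.

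Relative to the spread over regions, those of one gene lay closer in their RNA change than in their enrichment change. In 226 genes with several separate clusters, 504 in all, the standard deviation of the input change within a gene was 0.33 against 0.75 over these regions, whereas that of the enrichment change was 0.34 within a gene against 0.37 over the regions. The median standard error of an enrichment change was 0.29 over the 1793 clusters, not far below these 0.34 and 0.37. Sharing within a gene could therefore hardly show, and whether regions of a gene agree in enrichment change is not decided. The range within a gene exceeded 1 in 16 genes, of which some are named here after their values were seen. In VASH1, the region at chr14:76780976-76781127 with its change of -1.53 lay close to one at chr14:76780047-76780618 with 0.08 ± 0.17, whose IP rose by 0.91. ZBTB7A, a zinc finger repressor of the POK family, had 5 regions, from -1.07 ± 0.49 nearest the end of the gene to 0.55 ± 0.25. TCOF1 had 0.48 ± 0.22 at its start, -0.21 ± 0.30 and 0.90 ± 0.25. FERMT3, kindlin-3 of blood cells, had -0.31 ± 0.23, -0.05 ± 0.16 and 0.92 ± 0.38 in order along the gene, with an IP that rose by 1.06 to 1.27 in all 3 regions. The difference between regions of a gene was not tested.

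The mitochondrial chromosome held 27 member regions, a group picked out after its values were seen. Mitochondrial messages are transcribed as long precursors, carry no m7G cap and are cut at the tRNAs between them. Of the 27, 23 had an enrichment change above 0, with a median of 0.35 against 0.08 over all members, and 13 of 16 clusters did. The highest was the alanine tRNA gene on the minus strand (TRNA, MT:5586-5655) at 1.09 ± 0.35 (edgeR adjusted p = 0.232), whose IP rose by 0.71 while input was 0.38 lower. The asparagine tRNA gene beside it (TRNN) had 0.62 ± 0.34. A plus-strand region over RNR1 and the valine tRNA gene (TRNV) had -0.25 ± 0.44. Another on the minus strand, named COX1 (MT:7445-7514), had -0.04 ± 0.21. Gene names here could be matched on either strand, and COX1 was given to regions of both strands. Coding genes were preferred in naming, so a tRNA gene at the place of this minus-strand COX1 region would not be named. The minus-strand region named for ND5 and ND6, subunits of complex I, had 0.57 ± 0.19. Which gene its RNA came from cannot be told from the name. The second region of CYTB, cytochrome b, had 0.62 ± 0.23. The ND5 and ND6 region and this CYTB region had little change in IP, with input lower by 0.63 and 0.66. The group rested on single libraries: without replicate 3 of the KD inputs its median was 0.02 and 14 of 27 were above 0, and without replicate 2 of the NC inputs it stood 0.02 above the median of all clusters, in place of 0.26.

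**Figure D5:**
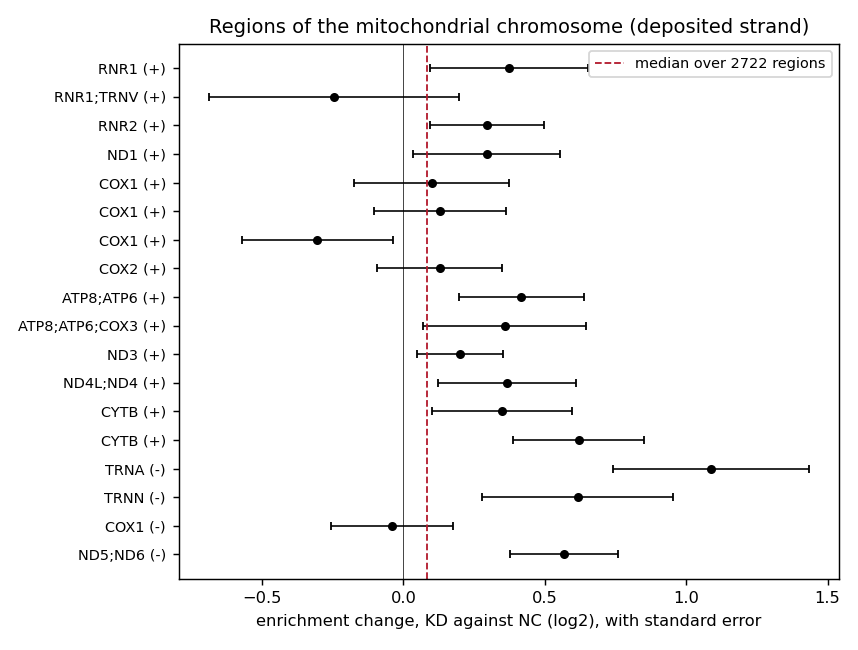
Enrichment change (horizontal, log2, KD against NC, with standard error) of the 18 distinct member regions of the mitochondrial chromosome, in order along the plus strand and then the minus strand; the dashed red line is the median over 2722 members. Gene names could be matched on either strand, so a name does not settle which gene the RNA came from. Most points lie to the right of the line, the alanine tRNA gene (TRNA) at 1.09 farthest, and most error bars span or come near the line.

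Depth set how precisely each ratio was known. In the 626 members whose lower input sum was between 50 and 100 reads the median standard error of the enrichment change was 0.45, and in the 791 with 500 or more it was 0.17. All of the members with 500 reads or more had an enrichment change within 1 of 0, and 593 of the 791 were above 0, with a median of 0.13. The 44 changes past 1 in the shallowest group, 23 higher and 21 lower, made up most of such changes. Peak calling also entered: members found only among the KD peaks had a median of 0.29, those found only among the NC peaks -0.19, and those shared 0.09 and 0.06 by the set they were called in. A peak called in one group alone was called on its IP in that group, so this contrast is built into the choice of peaks. Named losses called in NC only included RPL28, the lower region of VASH1, DNAJB11, POLR2C, IK, DDX39A, EEF2 and PSMC3IP. HAPSTR1 was also called in NC only, although its enrichment was higher in KD. Among the named gains, SAMD1 and AP1S2 were called in KD only.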

How the data were processed

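Raw read counts per peak for 12 m7G immunoprecipitation and input libraries were used as deposited. The submitters' processing notes name fastp 0.23.4 and build GRCh38; the aligner, peak caller and counter are not given in the sources used here. The authors' deposited table also holds a fold enrichment ratio, a score equal to it, p-values and adjusted p-values of each peak, and a log2 change of enrichment between the groups with its adjusted p-value; its scaling is not stated, and its direction was read by setting it against the counts. The members, gene lists and named regions were chosen with earlier results of these data known.

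Regions passing filterByExpr in edgeR 4.0.16 (R 4.3.3; 5113 regions) were fitted with TMM factors, 4 group means and 8 residual degrees of freedom. The enrichment change was the interaction contrast, tested with the two-sided quasi-likelihood F test and Benjamini-Hochberg adjustment over all tested regions, at 0.05. Standard errors are the log2 change over the root of F. Levels are TMM-scaled CPM of peak reads. DESeq2 1.42.0, other scalings, filters, input limits, replicate blocks and leaving out single libraries were the alternatives. Genes were assigned by overlap with RefSeq coordinates, on the same strand where the table gives it; 482 of the 2606 members in 1 gene lay in 257 genes without a given strand and were matched on either strand. The fit was tested on simulated data. Named regions were the 15 members with the smallest p in each direction, up to 4 per list, and those called by DESeq2 or by the authors, printed in part; others are said to be chosen after their values were seen. A gene among the named regions is not reported here.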

Additional observations from a re-analysis of the deposited data

Results flagged for a closer look

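In 12 member regions the IP and input libraries separated in opposite ways in the groups. This was seen in 0.147% of members in one direction and 0.294% in the other, against 0.235% and 0.821% of all tested regions. The regions were picked by this separation, which was not itself tested. In RPL28 (-2.91), in both calls of the UGP2 region (-0.68 and -0.68) and in QPRT, an enzyme of NAD synthesis (-0.32), every NC IP library lay above every NC input and every KD IP below every KD input. The reverse held in CCDC88C (1.42), in both calls at the BCL2L2 and BCL2L2-PABPN1 genes (1.42 and 1.37), in both calls of AKAP8L (0.87 and 0.85), in NOM1 (0.78), in TCIRG1, the osteoclast and macrophage proton pump subunit (0.76), and in CTSZ, a lysosomal cathepsin (0.51). The values are enrichment changes on the log2 scale, and none passed edgeR's adjusted test.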

How the results depend on the processing

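No member passed edgeR's test of the enrichment change under TMM, library size alone, TMM over the members, a threshold of 0.10, or input limits of 30, 100 and 200 reads; at an unadjusted p under 0.05 there were 303. DESeq2 passed 6 (1 higher, 5 lower), and dropping the count filter passed 14 (11 higher, 3 lower). Same-numbered libraries were not shown to be paired (their deviations correlated at 0.0167 to 0.192 between IP and input and at -0.232 to 0.0609 between the groups): the replicate block by number passed 0 and the block joining IP and input of one name 14 (13 higher, 1 lower). Leaving out single libraries gave 0 to 1. The median enrichment change of the members, 0.084, became -0.042 with library size alone, 0.056 with TMM over the members, 0.028 without the filter and 0.10 at 200 input reads or more, and lay between -0.023 and 0.094 when single libraries were left out, so its sign is not settled. The cause was not tested. Total calls of the other comparisons stayed within 1.5 times, but the split did not: below input, in NC 1128 became 722 with library size alone and 709 with TMM over the members, and in KD 1044 became 795 and 651; those above input in NC went from 439 to 648 and 662. Of the printed regions, some near 0 reversed: VASH1's second region gave -0.047 with library size alone, -0.012 with DESeq2 and -0.091 to 0.19 without single libraries. Leaving out single libraries also turned 2 regions of ZBTB7A (-0.015 to 0.24 and -0.28 to 0.057), FERMT3's second (-0.19 to 0.0076) and DUSP2's (-0.013 to 0.68). Regions with few input reads had the widest errors.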
